A study of Homo sapiens with 6 samples.

Results

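The DUSP, Sprouty and SPRED genes studied here are 10 feedback genes of MAP kinase signalling: DUSP1, DUSP2, DUSP4, DUSP5, DUSP6, DUSP10, SPRY1, SPRY2, SPRED1 and SPRED2. They were chosen by symbol, and each of the 10 had 1 row among the 30735 genes of the deposited FPKM table (FPKM is a fragment count scaled to the length of the gene and to the read total of the library). The groups were 3 libraries of SET-2 cells treated with CPL and 3 libraries of SET-2 cells given placebo, called control here. SET-2 is an established human megakaryoblastic leukaemia line with a mutant JAK2, grown here as a single line, so all 6 libraries share that background. The labels give neither what CPL stands for nor its dose or duration. They also do not say whether the replicates were separate cultures, so the p-values speak only for the scatter among these 6 libraries, part of which may be technical. The comparison of CPL with control asks how far the transcripts that report MAP kinase output differed after treatment.

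Growth factor and cytokine receptors activate RAS, which drives the kinases RAF, MEK and ERK, while stress and inflammatory signals drive the related kinases JNK and p38. The activated kinases switch on genes whose products shut the pathway off again. DUSP proteins of the MAP kinase phosphatase type remove phosphate from both the threonine and the tyrosine of the kinase activation loop, Sprouty proteins dampen receptor signalling towards RAS and RAF, and SPRED proteins bring the RAS inactivator neurofibromin to the membrane. In blood cells with an active JAK2, ERK is one of the pathways downstream of the kinase. Because several of these genes are transcribed quickly after ERK, JNK or p38 activation, their mRNA is often read as a measure of pathway output.

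Promoter sequence from RefSeq (GRCh38.p14) was examined for 8 of the 10 genes, in 13 windows of the 250 bases before an annotated start. DUSP4 and DUSP5 were not among the 8, so the counts of windows and matches do not cover them. The windows of DUSP1, DUSP2 and DUSP6 are shown because DUSP1 had the largest difference between the groups, DUSP2 the highest level, and DUSP6 is the classical ERK feedback phosphatase. Each runs 5′ to 3′ on the gene's strand, which is the minus strand for all 3, and ends at the base before the RefSeq start. That start can differ from the gene span given below. The DUSP6 window lies wholly inside the span given for DUSP6, as the SPRED1 window does for SPRED1. DUSP10, SPRY1, SPRY2 and SPRED2 had several windows, and each had at least 1 that lay wholly inside its gene's span. Capitals mark matches on either strand to the cyclic AMP response element TGACGTCA, its shorter core TGACG, the AP-1 site TGANTCA, the E-box CACGTG or the CArG box of serum response factor.
DUSP1, chr5:172771196-172771445: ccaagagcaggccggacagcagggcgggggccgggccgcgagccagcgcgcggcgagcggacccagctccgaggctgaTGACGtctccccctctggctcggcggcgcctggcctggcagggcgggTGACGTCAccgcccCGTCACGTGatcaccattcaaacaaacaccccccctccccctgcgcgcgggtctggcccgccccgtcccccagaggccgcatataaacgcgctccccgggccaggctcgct
DUSP2, chr2:96145441-96145690: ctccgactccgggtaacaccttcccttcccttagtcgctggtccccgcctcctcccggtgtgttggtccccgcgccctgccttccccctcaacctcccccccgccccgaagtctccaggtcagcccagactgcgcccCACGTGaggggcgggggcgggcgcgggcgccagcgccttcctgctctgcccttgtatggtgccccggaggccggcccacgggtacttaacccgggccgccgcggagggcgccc
DUSP6, chr12:89352502-89352751: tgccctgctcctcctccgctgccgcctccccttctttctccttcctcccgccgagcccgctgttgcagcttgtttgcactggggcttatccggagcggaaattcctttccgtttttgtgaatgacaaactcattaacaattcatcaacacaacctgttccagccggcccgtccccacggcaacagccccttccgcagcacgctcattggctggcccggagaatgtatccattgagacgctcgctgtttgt

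The DUSP1 window was the only 1 of the 13 with the full cyclic AMP response element, which starts 125 bases before the transcription start. That element is held by 1.63% of 34941 windows of the same length, each taken before an annotated start of any gene. These are all the windows meant below. The short core TGACG matched 4 times in that window, starting 172, 125, 122 and 111 bases upstream, where the matches at 125 and 122 lie within the full element. It also matched in 1 window of SPRY2 and is present in 21.2% of all windows. An E-box was found at 108 bases upstream in DUSP1, overlapping the last core match, and at 113 bases upstream in DUSP2, against 6.32% of all windows. No window of the 8 genes held the AP-1 site (6.59% of all windows) or the CArG box (1.16%). These matches are letters in the windows, and nothing was measured here about factors bound to them.

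Read totals estimated from the FPKM steps were 15482094, 16175167 and 16062614 in CPL replicates 1, 2 and 3. They were 14647948, 18239578 and 16945874 in control replicates 1, 2 and 3. The recovered reads summed over genes came out slightly above the estimate in every library (15552059 in CPL replicate 1), so the totals are approximate. Of 11 megakaryocyte markers, 9 were in the table and all 9 averaged at least 1 FPKM, ITGA2B among them, whereas none of 5 fibroblast markers did. T cell markers summed to 17.4 to 20.4 FPKM in CPL and 21.3 to 25.0 FPKM in control, where CD4 alone of 6 averaged at least 1 FPKM. Monocyte markers summed to 40.4 to 44.1 FPKM in CPL and 42.2 to 47.0 FPKM in control. LYZ alone of 6 averaged at least 1 FPKM there. B cell markers summed to 13.4 to 18.8 FPKM in CPL and 14.7 to 18.0 FPKM in control. Of these, 2 of 4 averaged at least 1 FPKM, CD79A and CD79B. Erythroid markers, of which 8 of 9 averaged at least 1 FPKM, summed to 937 to 2440 FPKM in CPL and 1020 to 1170 FPKM in control. No marker was at 0 in every library among these lists, and their part in the results was not tested. Library GC content set CPL replicate 1 apart: across genes, the rank correlation of its deviation from the mean of all 6 libraries with gene GC content was 0.736, against −0.51 to −0.0049 in the other 5. In bulk RNA, fewer cells with a transcript and less of it per cell cannot be told apart.

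CPL-treated cells had 3.27 times the mean DUSP1 level of control cells, and the mean of DUSP5 was 1.83 times, of DUSP2 1.54 times, of SPRED2 1.36 times, of SPRED1 1.21 times and of DUSP6 1.19 times that of control. The groups overlapped for DUSP2 and DUSP6. SPRY1, at 1.03 times, and DUSP10, at 0.953 times, lay closest to the control mean, and SPRY2 was at 0.849 times. None of the 9 genes that could be tested reached an adjusted p under 0.05 in limma with Benjamini-Hochberg adjustment over 13092 genes, where 1.76% of all tested genes did. At an unadjusted p under 0.05, DUSP1, DUSP5 and SPRED2 passed, 3 of 9, all with a positive change. Of all tested genes 19.5% passed it, and 9.54% passed it with a positive change. In DUSP1, DUSP5, SPRED1 and SPRED2, 4 of 9, every CPL library lay above every control library, as in 14.1% of all tested genes. The change was positive in 7 of the 9, against 49.2% of all tested genes, and their median log2 change was 0.23, against −0.01 over all genes. Changes are given as differences of log2(FPKM + 1), CPL minus control, a scale that understates the change of genes with low FPKM.

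**Figure D1:**
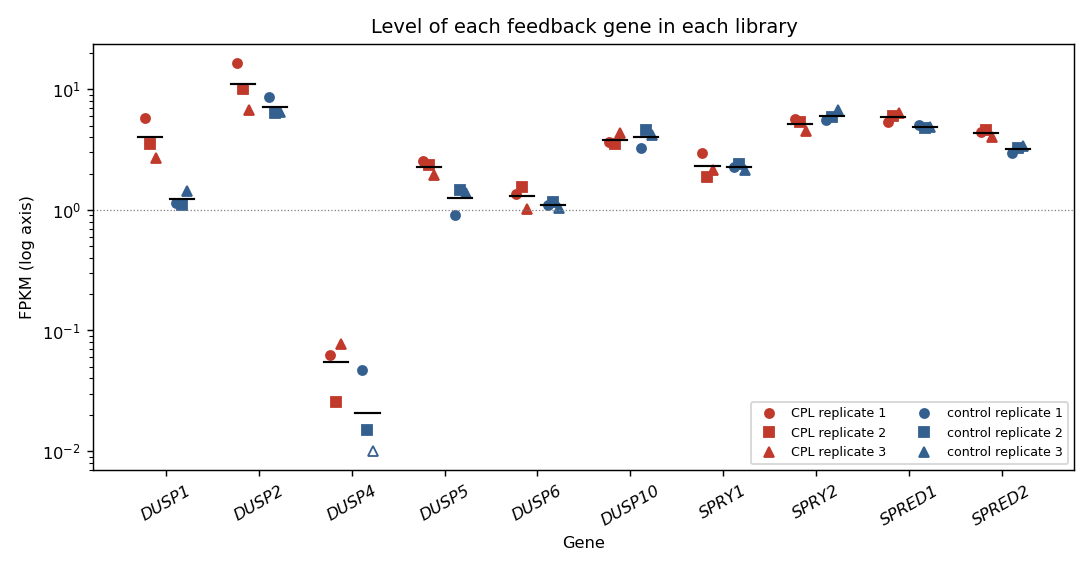
FPKM of the 10 feedback genes in each library on a log axis, with the 3 CPL libraries left of the 3 control libraries and a bar at each group's mean. DUSP1 is the gene whose groups lie furthest apart (2.71 to 5.73 FPKM in CPL, 1.09 to 1.43 FPKM in control), DUSP4 lies far below the dotted line at 1 FPKM, and the open symbol is a library listed at 0, drawn at 0.01.

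DUSP1 (ENSG00000120129, chromosome 5, 172768090 to 172771195, GRCh38) encodes a nuclear, inducible phosphatase that acts on p38 and JNK as well as ERK. It had 5.73, 3.55 and 2.71 FPKM in CPL replicates 1, 2 and 3, against 1.15, 1.09 and 1.43 FPKM in control replicates 1, 2 and 3. The lowest CPL library was thus above the highest control library, and CPL replicate 1 was the highest of the 6. Behind these values stood 179, 116 and 88 reads in CPL and 34, 40 and 49 reads in control, so the control levels rest on few reads. The log2 change was 1.13 ± 0.22 (SE, n = 3 each; 95% interval 0.62 to 1.64), with a limma adjusted p of 0.0531. It passed in limma voom fitted to the recovered reads (log2 change 1.63 ± 0.34, adjusted p = 0.0263), where 3.94% of all genes were called and 2.46% were called higher. It also passed after removal of each library's GC trend (1.06 ± 0.16, limma adjusted p = 0.0079), where 13.5% of all genes were called and 7.14% were called higher. Without CPL replicate 1 its log2 change was 0.89 (limma adjusted p = 0.0236), and over the fits that left out 1 library it ranged from 0.89 to 1.32 with limma adjusted p from 0.0236 to 0.198.

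DUSP5 (chromosome 10, 110497838 to 110511544), another nuclear phosphatase and one that acts on ERK alone, had the next largest change. Its levels were 2.52, 2.36 and 1.95 FPKM in CPL libraries and 0.914, 1.45 and 1.38 FPKM in control libraries. The groups did not overlap, with 82 to 102 reads per CPL library and 35 to 69 reads per control library. Its log2 change of 0.55 ± 0.15 (SE; 95% interval 0.20 to 0.90) had a limma adjusted p of 0.119. With the GC trend removed the log2 change was 0.47 (limma adjusted p = 0.0637), and in voom on the reads it was 0.86 (limma adjusted p = 0.0938), so it was not called in either.

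DUSP2 (chromosome 2, 96143166 to 96145440) encodes a nuclear phosphatase found mainly in blood cells and was the most abundant of the 10 genes in both groups. It had 16.4, 10.02 and 6.7 FPKM in CPL replicates 1, 2 and 3, and 8.66, 6.36 and 6.51 FPKM in the controls. The groups overlapped: CPL replicates 1 and 2 were above the highest control, while CPL replicate 3 lay inside the control range. The log2 change of 0.49 ± 0.28 (SE; 95% interval −0.16 to 1.14) did not pass the test (limma adjusted p = 0.377). Its transcript is 63.9% GC, the highest among the 10 genes, and with the GC trend removed its levels were 11.1, 10.02 and 7.73 FPKM in CPL and 9.32, 7.4 and 6.83 FPKM in control, a log2 change of 0.26. As deposited, the change was 0.18 without CPL replicate 1 (limma adjusted p = 0.608) and 0.77 without CPL replicate 3 (limma adjusted p = 0.108).

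DUSP6 (chromosome 12, 89347232 to 89353271) encodes the cytoplasmic phosphatase specific for ERK, whose mRNA is widely used as a marker of ERK activity. It had 1.35, 1.56 and 1.02 FPKM in CPL and 1.09, 1.17 and 1.03 FPKM in control, with 76 to 117 and 74 to 99 reads per library. The groups overlapped and CPL replicate 3 was the lowest of the 6. The log2 change of 0.13 ± 0.15 (SE) did not pass the test (limma adjusted p = 0.656), and its 95% interval ran from −0.22 to 0.48, so at this depth neither a small fall nor a rise of that size can be set aside. Exons of an antisense gene, AC024909.2, cover part of DUSP6 and share 37.1% of its 50-base stretches. That gene was credited with 1 read in the 6 libraries together, and no label says that the reads kept their strand.

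DUSP10 (chromosome 1, 221701424 to 221742176), whose product acts on p38 and JNK rather than ERK, had 3.66, 3.52 and 4.32 FPKM in CPL and 3.28, 4.63 and 4.15 FPKM in control. The groups overlapped fully, with both the highest and the lowest library among the controls. Its log2 change was −0.05 (95% interval −0.37 to 0.27; limma adjusted p = 0.874), and it was 0.0061 with the GC trend removed. DUSP4 (chromosome 8, 29333064 to 29350668), which encodes a nuclear phosphatase related to DUSP1, was barely detected, with 7, 3 and 9 reads in CPL libraries and 5, 2 and 0 reads in control libraries. Those reads amount to 0.0256 to 0.0772 FPKM in CPL and 0 to 0.047 FPKM in control, and the count of 0 in control replicate 3 allows up to 3 reads, which are worth 0.0244 FPKM on its 7257 bases. It was under the filter of at least 1 FPKM in at least 3 libraries, so it was not tested and no fold is given.

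The Sprouty genes lay near or below their control levels. SPRY1 (chromosome 4, 123396795 to 123403760) had 2.95, 1.89 and 2.14 FPKM in CPL and 2.26, 2.38 and 2.16 FPKM in control. CPL replicate 1 was above all controls and the other CPL libraries were below them. The log2 change of SPRY1 was 0.01 (95% interval −0.33 to 0.36; limma adjusted p = 0.969). SPRY2 (chromosome 13, 80335976 to 80340951) had 5.63, 5.31 and 4.47 FPKM in CPL and 5.55, 5.87 and 6.74 FPKM in control. Its groups overlapped in 1 pair of libraries, CPL replicate 1 and control replicate 1, and its log2 change of −0.20 ± 0.12 (SE; 95% interval −0.49 to 0.08) did not pass (limma adjusted p = 0.403).

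Both SPRED genes were higher in every CPL library than in every control library, by smaller amounts than DUSP1. SPRED2 (chromosome 2, 65310851 to 65432637) had 4.4, 4.61 and 3.99 FPKM in CPL and 2.94, 3.24 and 3.40 FPKM in control. Its mean was 4.33 ± 0.32 FPKM in CPL and 3.20 ± 0.23 FPKM in control (SD, n = 3 each), 1.36 times as high. The log2 change of 0.35 ± 0.11 (SE; 95% interval 0.09 to 0.60) had a limma adjusted p of 0.154.
SPRED1 (chromosome 15, 38252326 to 38357249), which is mutated in a RAS pathway syndrome, had 5.37, 6.05 and 6.33 FPKM in CPL and 5.01, 4.81 and 4.84 FPKM in control. Its controls lay close together and each CPL library was above them, with a log2 change of 0.23 ± 0.10 (SE; 95% interval −0.01 to 0.47; limma adjusted p = 0.27). Removal of the GC trend, where 13.5% of all genes were called and 7.14% were called higher, brought both genes past the threshold, SPRED2 at a log2 change of 0.35 (limma adjusted p = 0.0408) and SPRED1 at 0.35 (limma adjusted p = 0.0299). Both calls were lost in that fit without CPL replicate 1 (limma adjusted p = 0.0986 for SPRED2 and 0.068 for SPRED1) and with a replicate block (limma adjusted p = 0.0927 for SPRED2 and 0.0563 for SPRED1). The SPRED1 transcript is 38.9% GC, the lowest among the 10 genes, and its change as deposited was 0.23. Neither was called in voom on the reads (limma adjusted p = 0.124 for SPRED2 and 0.24 for SPRED1).

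**Figure D2:**
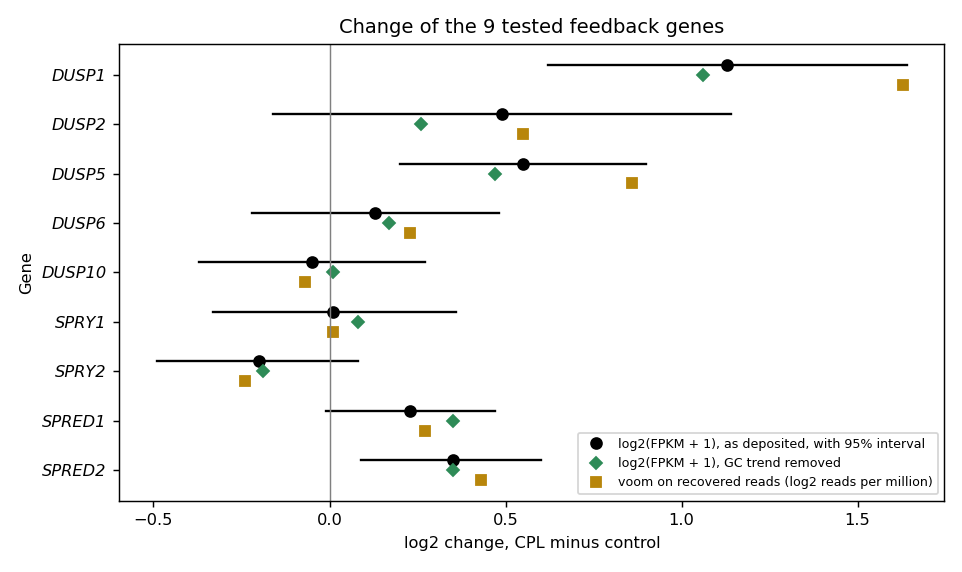
log2 change, CPL minus control, of the 9 tested genes, from log2(FPKM + 1) as deposited (circle, with the 95% interval), after removal of the GC trend (diamond) and from voom on recovered reads (square). The intervals of DUSP1, DUSP5 and SPRED2 lie above 0, those of the other 6 genes include it, and voom gives a larger change for DUSP1 (1.63) than log2(FPKM + 1) does (1.13).

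The CPL libraries differed among themselves, and not in the same way for each gene. Relative to the control mean, DUSP1 was higher by 1.60, 1.04 and 0.74 on the log2(FPKM + 1) scale in CPL replicates 1, 2 and 3, and DUSP2 by 1.11, 0.44 and −0.07. With the GC trend removed the differences were 1.39, 1.01 and 0.78 for DUSP1 and 0.46, 0.33 and −0.01 for DUSP2. DUSP5 was more even, at 0.66, 0.59 and 0.40 as deposited and 0.41, 0.56 and 0.45 with the trend removed. SPRED2 had 0.37, 0.42 and 0.25 as deposited. SPRED1 was lowest in CPL replicate 1 as deposited (0.11, against 0.26 and 0.32) and highest there with the trend removed (0.47, against 0.32 and 0.27).

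**Figure D3:**
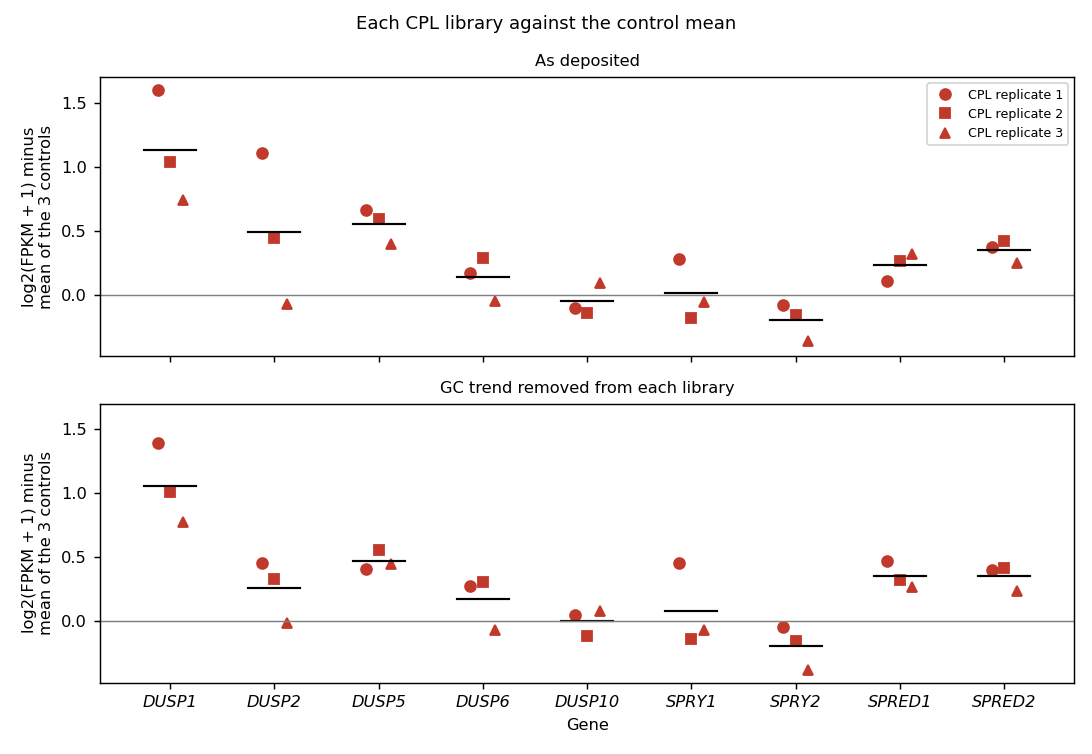
Difference of each CPL library from the mean of the 3 controls on the log2(FPKM + 1) scale for the 9 tested genes, as deposited (upper panel) and with the GC trend removed (lower panel), with a bar at the mean of the 3 libraries. All 3 libraries are above 0 for DUSP1, DUSP5, SPRED1 and SPRED2 in both panels, and the spread of DUSP2 shrinks to −0.01 to 0.46 in the lower panel.

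The order of the levels was DUSP2, SPRED1, SPRY2, SPRED2, DUSP1, DUSP10, SPRY1, DUSP5, DUSP6 and DUSP4 in CPL cells, and DUSP2, SPRY2, SPRED1, DUSP10, SPRED2, SPRY1, DUSP5, DUSP1, DUSP6 and DUSP4 in control cells, by mean FPKM. In CPL cells, the ranges overlapped between neighbours from SPRED1 through DUSP10 and between SPRY1 and DUSP5. In control cells they overlapped between DUSP2 and SPRY2, between DUSP10 and SPRED2, and among DUSP5, DUSP1 and DUSP6. DUSP1 lay above 36.2% of tested genes by mean FPKM in CPL cells and above 6.9% in control cells. Of the FPKM summed over the 6 DUSP genes, DUSP1 made up 16.2% to 19.2% in CPL libraries and 7.39% to 9.88% in control libraries, which did not overlap. For DUSP2 that share was 39.9% to 55.3% in CPL and 43.2% to 57.2% in control. The 6 DUSP genes together summed to 29.8, 21.0 and 16.8 FPKM in CPL replicates 1, 2 and 3 and to 15.1, 14.7 and 14.5 FPKM in control replicates 1, 2 and 3, without overlap. The 4 Sprouty and SPRED genes together summed to 16.9 to 18.4 FPKM in CPL and 15.8 to 17.1 FPKM in control, with overlap. All 10 summed to 33.7 to 48.1 FPKM in CPL and 30.9 to 31.6 FPKM in control, without overlap. These sums are as deposited, with the GC trend left in, and are not a trait of each gene. The means of DUSP2 (11.1 FPKM in CPL, 7.17 FPKM in control) and DUSP1 (4.0 FPKM in CPL, 1.22 FPKM in control) differed most. The means of DUSP10 and SPRY2 were lower in CPL.

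The genes whose profile over the 6 libraries was most like that of DUSP1, by the root mean square difference of centred log2(FPKM + 1) among 7798 genes whose higher group averaged 5 FPKM or more, were SRC and PLA2G6, both at 0.06. SRC, which encodes a tyrosine kinase upstream of RAS, averaged 17.2 ± 4.9 FPKM in CPL and 7.48 ± 0.51 FPKM in control (SD, n = 3 each), a log2 change of 1.07. PLA2G6, a phospholipase gene, had a log2 change of 1.04. The profiles were compared as deposited, with the GC trend left in. With it removed the log2 changes were 0.92 for SRC and 0.86 for PLA2G6. Both were chosen for their likeness to DUSP1, so these changes are a description with no test. For DUSP5 they were NQO2, a quinone reductase gene, at 0.06 and GSTT2B, a glutathione transferase gene with a near-identical neighbouring copy, at 0.07.

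As deposited, no tested phosphatase of the family outside the 10 feedback genes passed either. Of the remaining 4 MAP kinase phosphatase genes, 2 were tested and none passed. DUSP16, which acts on JNK and p38, had 1.39, 1.5 and 1.38 FPKM in CPL and 1.23, 0.805 and 0.763 FPKM in control (log2 change 0.33, limma adjusted p = 0.282). DUSP7, a cytoplasmic ERK phosphatase close to DUSP6, averaged 6.27 ± 1.04 FPKM in CPL and 6.32 ± 0.37 FPKM in control (SD). DUSP9 stayed at or below 0.163 FPKM in all 6 libraries. None of 10 tested atypical dual-specificity phosphatases passed. The nearest was DUSP3, which encodes a small phosphatase of ERK and JNK, at 9.15, 9.24 and 8.33 FPKM in CPL and 13.3, 12.9 and 12.6 FPKM in control. Every CPL library was below every control library, as in 14.9% of all tested genes, and its log2 change was −0.49 ± 0.09 (SE; limma adjusted p = 0.0521), with a limma adjusted p of 0.0323 in voom on the reads, where 1.48% of all genes were called lower, and 0.00495 with the GC trend removed, where 6.33% were. DUSP14 had a log2 change of 0.37 (limma adjusted p = 0.185). SPRY3, SPRY4 and SPRED3 were all under the filter, with SPRY4 at 0.0942 to 0.167 FPKM in CPL and 0.0416 to 0.0752 FPKM in control, and SPRED3 at 0.393 to 0.672 FPKM in CPL and 0.211 to 0.396 FPKM in control.

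Upstream, SHC1 rose, which encodes the adaptor that links receptors to the RAS activator SOS. It had 52.4, 42.2 and 42.6 FPKM in CPL and 23.1, 24.5 and 26.2 FPKM in control, with a log2 change of 0.86 ± 0.12 (SE) and a limma adjusted p of 0.02. Of all tested genes 1.09% rose and 0.665% fell. SHC1 was the only 1 of 22 tested genes of the RAS-ERK cascade past the threshold, none fell, and the median log2 change of the cascade was 0.11. MAPK3, a kinase gene of the cascade, did not pass and averaged 9.98 ± 1.93 FPKM in CPL and 8.06 ± 1.13 FPKM in control (SD, n = 3 each). None of 16 tested genes of the JNK and p38 cascade passed (median log2 change 0.10). The largest changes there were MAPK11, a p38 gene, at 0.55 (limma adjusted p = 0.143, and 0.03 with the GC trend removed) and MAP2K7, a JNK kinase gene, at 0.44 (limma adjusted p = 0.224, and 0.0684 with the GC trend removed). With the GC trend removed, 3 genes of the RAS-ERK cascade and 1 of the JNK and p38 cascade (MAPK11) were called, all higher. In that fit 13.5% of all tested genes were called and 7.14% were called higher. The 3 were SHC1, SOS2 and KSR1, where SOS2 and KSR1 were named after their values were seen.

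Among 10 tested further negative regulators of RAS-ERK signalling, none passed as deposited, and 1 was called higher and 1 lower with the GC trend removed. That fit called 7.14% of all tested genes higher and 6.33% lower. CBLB, a ubiquitin ligase gene, averaged 3.12 ± 0.46 FPKM in CPL and 2.02 ± 0.15 FPKM in control (SD; log2 change 0.44, limma adjusted p = 0.133, and 0.00801 with the GC trend removed). PEBP1, which encodes an inhibitor of RAF, averaged 48.0 ± 1.5 FPKM in CPL and 62.9 ± 3.6 FPKM in control (SD; log2 change −0.38, limma adjusted p = 0.0881, and 0.0137 with the GC trend removed). Among 14 tested cytokine receptor feedback genes there was 1 riser and no faller as deposited, against 1.09% and 0.665% of all tested genes. The riser was SH2B3, whose product LNK restrains JAK2, at 25.3, 20.8 and 20.7 FPKM in CPL and 12.4, 12.6 and 12.6 FPKM in control (log2 change 0.78 ± 0.11, SE; limma adjusted p = 0.0228). With the GC trend removed 2 of the 14 were called higher, SH2B3 and SOCS1, against 7.14% of all tested genes. Another 3 were called lower, PTPN6, SOCS3 and PTPN1, against 6.33% of all tested genes. All of these but SH2B3 were named after their values were seen. Their log2 changes as deposited were 0.68 for SOCS1, −0.18 for PTPN6, −0.38 for SOCS3 and −0.34 for PTPN1. As deposited, SHC1 and SH2B3 each lost the call without CPL replicate 2 or any 1 of the controls, with limma adjusted p up to 0.129 for SHC1 and 0.136 for SH2B3, while their log2 changes stayed between 0.76 and 0.92 and between 0.69 and 0.83.

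Of 26 ERK-responsive genes outside the 10, 17 were tested and 1 of these rose, against 1.09% of all tested genes. The median log2 change of the 17 was 0.23, against −0.01 over all tested genes. In 5 of the 17 every CPL library was above every control library, as in 14.1% of all tested genes, and in 1 every CPL library was below, as in 14.9%. With the GC trend removed 3 of the 17 were called, all higher: LIF, FOSL1 and SPHK1, where FOSL1 and SPHK1 were named after their values were seen. In that fit 13.5% of all tested genes were called and 7.14% were called higher. The riser as deposited was LIF, a cytokine gene, at 4.61, 4.24 and 3.18 FPKM in CPL and 0.568, 0.635 and 0.357 FPKM in control (log2 change 1.71 ± 0.16, SE; limma adjusted p = 0.00592), and leaving out any 1 of the 6 libraries did not end its call. The ETS factor genes ETV4 and ETV5 follow ERK activity in many cells, as DUSP6 does, and neither passed. ETV5 had 1.89, 2.37 and 2.21 FPKM in CPL and 1.55, 1.42 and 1.17 FPKM in control, without overlap (log2 change 0.41, limma adjusted p = 0.165), whereas ETV4 averaged 3.95 ± 0.90 FPKM in CPL and 3.94 ± 0.90 FPKM in control (SD). EGR1, an immediate early gene, was abundant at 97.7, 89.6 and 62.7 FPKM in CPL and 78.7, 71.0 and 73.4 FPKM in control, and its groups overlapped (log2 change 0.14, limma adjusted p = 0.679). CCND1, which encodes cyclin D1, had 0.829, 0.832 and 0.838 FPKM in CPL, all below the 1.07, 1.18 and 1.38 FPKM of the controls (log2 change −0.27, limma adjusted p = 0.348). PHLDA1 was under the filter, at 0.185 to 0.256 FPKM in CPL and 0.0878 to 0.183 FPKM in control.

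**Figure D4:**
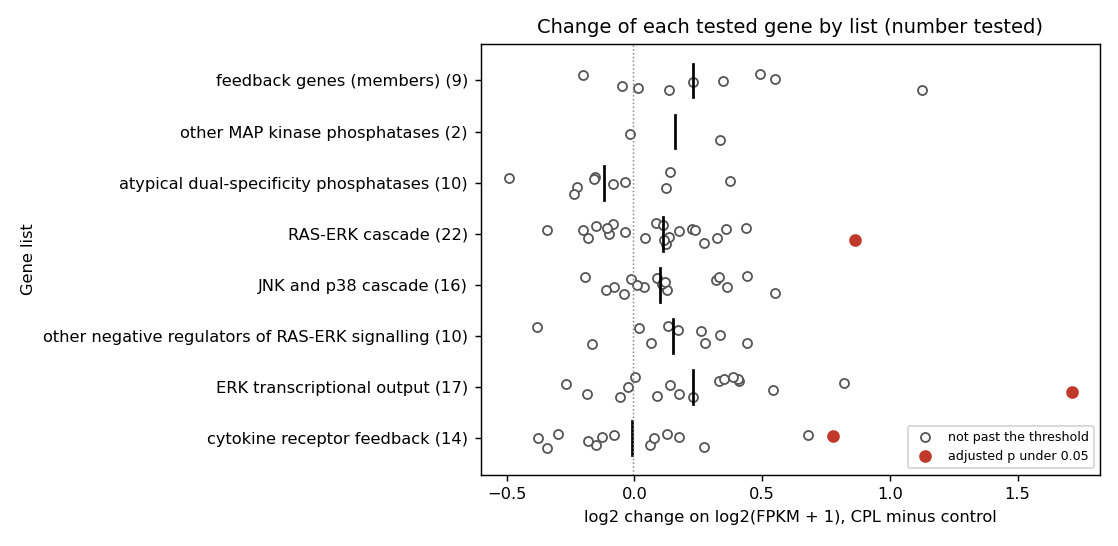
log2 change on log2(FPKM + 1), CPL minus control, of each tested gene in the feedback set and 7 related lists, with a bar at each list's median and the median of all genes (−0.01) dotted. The filled points are the 3 genes past an adjusted p of 0.05, SHC1 (0.86), LIF (1.71) and SH2B3 (0.78), and the feedback genes run from −0.20 for SPRY2 to 1.13 for DUSP1.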

How the data were processed

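Polyadenylated RNA of SET-2 cells was sequenced as single-end reads of 50 bases, per the labels' protocols, in 3 CPL and 3 control samples. The authors deposited 1 table of FPKM values, with 1 column per sample, matched by the description label. As neither header nor labels name it, the unit rests on the values: 98.7% to 99.0% of values worth up to 20 reads were whole within 0.1 of a read once multiplied by exon length in GENCODE 29 (30683 of 30735 genes found). Per the submitters' processing notes, the build was GRCh38 and the tools, with no role given, included RSEM 1.2.12, HISAT2 2.0.4, DESeq2 1.4.5 and Bowtie2 2.2.5.

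Genes that reached 1 FPKM in 3 or more libraries were fitted in limma 3.58.1 (R 4.3.3) on log2(FPKM + 1), with group as the only term, trend and robust moderation, two-sided, and adjustment over all 13092 genes at 0.05. GC trends were removed by loess (span 0.5) on the GC content of each gene's longest transcript. The functions were tested on simulated reads with the same spread in all genes and no GC trend. That test therefore does not cover the GC differences among these libraries. Alternatives covered pseudocount, filter, scaling, moderation, GC, leaving out each library and a replicate block. voom on recovered reads was added after seeing the data. Because FPKM is relative to the read total, abundant genes can shift the rest. Read floors cover counting error only.

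The members, lists and tests were chosen with earlier results of these data known. Beyond the 10 members, named genes were up to 4 called genes per list by smallest adjusted p whose higher group averaged 1 FPKM or more (the 2 largest changes where none was called), 12 fixed genes (1 is not reported here), and the 2 most like profiles of the 2 members with the largest change. Figures used Python 3.11.15, numpy 2.4.6, pandas 2.3.3 and matplotlib 3.10.9.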

Additional observations from a re-analysis of the deposited data

How the results depend on the processing

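Of 156 values of the 9 tested members under the alternatives, 138 kept their direction and their side of the threshold, 11 passed it where the fit as deposited did not, and 7 changed sign. No member was called as deposited, so no call could be lost. The 11 were 9 of DUSP1 and 1 each of SPRED1 and SPRED2, both with the GC trend removed. The 7 were of genes near 0: DUSP10 had 0.0061 with the GC trend removed, with or without the replicate block, and 0.038 without control replicate 2 (−0.16 to 0.038 when 1 library was left out), and SPRY1 had −0.0032 with quantile normalization, −0.11 with the GC trend removed and CPL replicate 1 left out, −0.12 without CPL replicate 1 and −0.0098 without control replicate 3 (−0.12 to 0.11 when 1 library was left out). The number of members called was 0 as deposited, 1 (DUSP1) with a pseudocount of 0.1 or 0.01, with upper quartile scaling, with the GC trend removed together with the replicate block or without CPL replicate 1, and in voom on the reads, 3 with the GC trend removed, and 0 to 1 when 1 library was left out (1 without CPL replicate 1 or 3). The number of genes called was 230 as deposited, 25 with no filter, 63 with the replicate block, 1761 with the GC trend removed, 1091 with that and the block, 1180 with that and without CPL replicate 1, 515 in voom, and 18 to 703 when 1 library was left out (18, 25 and 24 without control replicates 1, 2 and 3, and 703, 33 and 200 without CPL replicates 1, 2 and 3). The causes were not tested. The labels do not say that replicate numbers pair the samples, so the block was not used in the fit as deposited. Deviations of same-numbered samples correlated at 0.0836, 0.0885 and −0.168 across genes, and those of differently numbered samples at −0.229 to 0.222. The GC trends were left in these deviations, so the correlations cannot settle whether the samples are paired. Under the block DUSP1 kept its log2 change of 1.13 with a limma adjusted p of 0.084. Depth limits DUSP1, DUSP5 and DUSP6, which had 34 to 99 reads in control libraries, and DUSP4, which had at most 9 reads anywhere.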
